A study of Mus musculus with 8 samples.

Results

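The genes described here are the 57 DNA replication and S phase genes that the deposited expression table was searched for by name. They were required to have a mean of at least 0 log2 CPM over the 8 libraries, where CPM is the read count scaled to a common library size and 0 on the log2 scale is 1 CPM. All 57 were found and all 57 passed, out of 13744 genes in the table and 12752 that passed the same floor. The libraries held RNA of Ly6C+ classical monocytes from mouse bone marrow, the cells that circulate as inflammatory monocytes and that give rise to Ly6C-low nonclassical monocytes. There were 2 libraries for each of 4 genotypes, which the labels give as Bcl6 cKO, a conditional knockout, then Irf2 KO, Nr4a1 KO and wild type. The 3 targeted genes encode transcription factors, and the series asked how they act on the development of nonclassical monocytes. The sources used here do not give the Cre line that drives the Bcl6 deletion, the alleles, the strain, the age and sex of the mice or any pooling of animals. The labels do not say whether a genotype's 2 libraries are from 2 mice, so p-values measure only how far libraries lie apart, which may be a technical spread.

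Before a cell divides, its DNA is copied once from many origins. In G1, the origin recognition complex, Cdc6 and Cdt1 load the MCM helicase onto origins. At the start of S phase, cyclin E with its kinase, Cdc45 and the GINS complex switch that helicase on, and polymerases held on DNA by the PCNA clamp copy the strands. Most of these genes are transcribed in a wave at the G1 to S transition under the control of E2F factors, so their summed RNA in a tissue is widely used as a measure of cycling cells. Monocytes leave the cell cycle as they mature in the bone marrow, while their progenitors divide.

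The targeted genes were read first. Bcl6 stood at 6.53 and 6.40 log2 CPM in the libraries labelled Bcl6 cKO, against 4.66 and 4.64 log2 CPM in wild type. It was thus higher, not lower, under that label (log2 fold change 1.81 ± 0.16 SE, adjusted p = 0.0023), and reads over the whole gene do not check a deletion of some exons. Every direction given below for these 2 libraries rests on the label alone. Irf2 was 0.56 ± 0.14 lower in Irf2 KO on the log2 scale (adjusted p = 0.0222). It still stood at 6.50 and 6.69 log2 CPM there, against 7.18 and 7.14 log2 CPM in wild type. Reads over the whole gene do not check a deletion of some exons for this label either. Nr4a1 was 2.31 ± 0.27 lower in Nr4a1 KO (adjusted p = 0.000622). Nr4a1 was also 2.41 ± 0.27 lower in Irf2 KO than in wild type (adjusted p = 0.00163), and Bcl6 was 1.07 ± 0.16 lower there (adjusted p = 0.00382). All 10 classical monocyte markers on the list were in the table, and Ly6c2, which encodes the Ly6C antigen, stood between 11.49 and 12.61 log2 CPM in the 8 libraries. Each library held 46617756 to 62633123 reads in genes, and 1 CPM stood for 47.9 to 61.8 reads. The 57 genes together made up 5838 and 5280 CPM in the libraries labelled Bcl6 cKO, 7395 and 7132 in Irf2 KO, 5184 and 5106 in Nr4a1 KO, and 6681 and 6263 in wild type.

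The replication genes were highest in Irf2 KO and lowest in Nr4a1 KO or in the libraries labelled Bcl6 cKO, and the differences were small for most of them. The mean over 2 libraries was highest in Irf2 KO for 43 of the 57 genes and in wild type for 14. Over all genes tested the shares were 29.4% and 28.8%. The mean was lowest in Nr4a1 KO for 34, in the libraries labelled Bcl6 cKO for 16 and in wild type for 7. Over all genes tested these shares were 26.6%, 14.6% and 26.3%. In bulk RNA a smaller share of cells in S phase and less RNA per cell cannot be told apart. A moderated F test over the 4 genotypes called 32 of the 57 genes at an adjusted p under 0.05, where 28.2% of all genes tested were called. All p-values are adjusted over the 12752 genes by the Benjamini-Hochberg method.

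**Figure D1:**
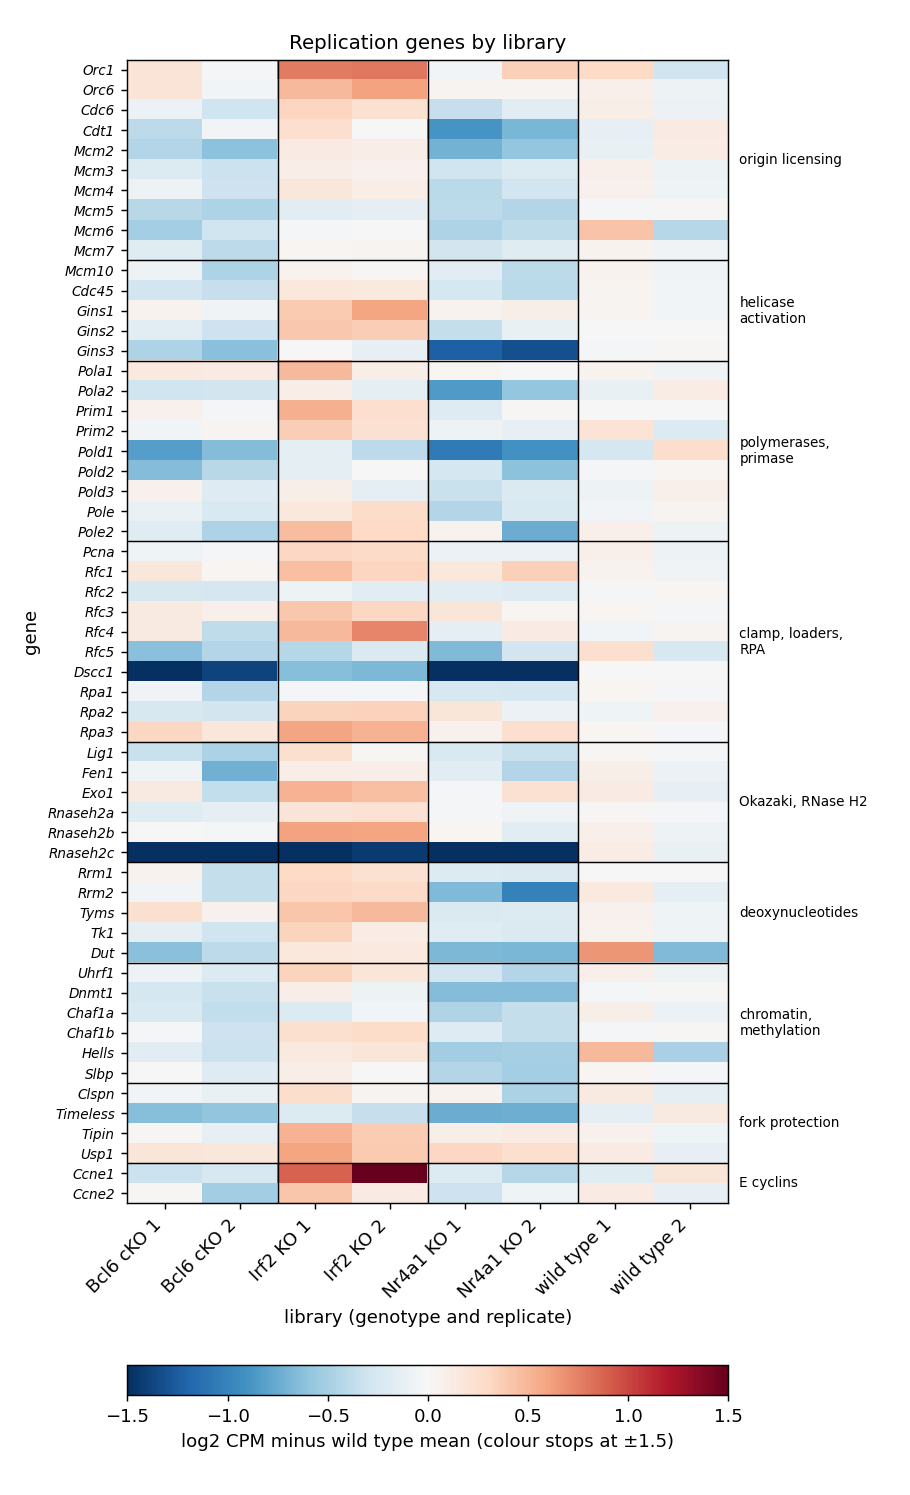
Level of each of the 57 replication genes in each of the 8 libraries, as log2 CPM minus the mean of the 2 wild type libraries, with genes grouped by role. Both Irf2 KO columns are mostly red, while Rnaseh2c and Dscc1 are blue in all 6 knockout columns.

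Against wild type, 5 genes fell in the libraries labelled Bcl6 cKO, where 5.01% of all genes were called and 3.65% were called lower. They were Mcm2, Mcm5, Dscc1, Rnaseh2c and Timeless. The median log2 fold change of the 57 genes was -0.22, beside -0.01 over all genes tested, and 9 of the 57 lay above 0, where 49.3% of all genes did. No gene of the 57 was called higher by limma, 0 were higher at an unadjusted p under 0.05 against 15 lower (21.6% of all genes passed in either direction), and limma voom on the recovered reads called 0 higher and 5 lower. Both of these libraries lay below both wild type ones for 29 genes, where 28.4% of all genes did so. Fewer genes were called without either of the libraries labelled Bcl6 cKO, over all genes as well as among the 57. Of the 5 calls, 2 remained after a correction for GC content and length. The early myeloid markers summed to 2152 to 2497 CPM in the libraries labelled Bcl6 cKO, against 1701 to 1955 CPM in wild type (Elane rose). The neutrophil markers summed to 560 to 669 CPM, against 912 to 923 CPM (Mmp9 and Csf3r fell). Elane is 12.5% of its tested list, beside 1.36% of all genes called higher, and the 2 falls are 20.0%, beside 3.65% called lower. The erythroid markers summed to 7.61 to 15.5 CPM under that label, against 24.4 to 25.4 CPM (Hba-a1 fell), and the B cell markers to 35.4 to 39.0 CPM, against 74.5 to 78.1 CPM (Cd79b fell). Their part was not tested. Without wild type replicate 1, 19 of the 57 fold changes lay above 0. The median was -0.31 without replicate 1 of those labelled Bcl6 cKO and -0.085 without their replicate 2.

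In Irf2 KO, 12 genes rose and 2 fell against wild type, where 21.6% of all genes were called, 9.26% higher and 12.3% lower. Orc6, Gins1, Pcna, Rfc1, Rfc3, Rfc4, Rpa3, Rnaseh2b, Tyms, Tipin, Usp1 and Ccne1 rose, and Dscc1 and Rnaseh2c fell. The median log2 fold change was 0.21, beside -0.04 over all genes, and 43 of the 57 genes lay above 0, where 46.5% of all genes did. Both Irf2 KO libraries lay above both wild type ones for 33 genes, where 30.1% of all genes did so. The median was 0.14 and 0.25 without Irf2 KO replicate 1 and 2, and 0.15 without wild type replicate 2. Fewer genes were called in these fits, over all genes as well as among the 57. Rnaseh2b and Rnaseh2c were the genes called whichever of the 8 libraries was left out. A correction for GC content and length gave 10 calls and ended those of Orc6, Gins1, Pcna, Rfc3, Rfc4, Rpa3 and Tipin.

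Markers of other cells moved with the same comparison. Of 10 early myeloid progenitor markers, 8 were in the table (Kit and Gfi1 were not), and their summed level was 3595 to 4573 CPM in Irf2 KO, against 1701 to 1955 CPM in wild type. Mpo, Myb, Elane, Ms4a3, Ctsg and Prtn3 rose in Irf2 KO, and Cd34 fell. The 10 classical monocyte markers summed to 21234 to 23664 CPM in Irf2 KO, against 33941 to 38919 CPM in wild type, and 6 of them fell (60.0%). The 10 neutrophil markers summed to 308 to 607 CPM in Irf2 KO, against 912 to 923 CPM in wild type, and 4 of them fell (40.0%). The 4 erythroid markers in the table summed to 2.62 to 4.87 CPM, against 24.4 to 25.4, the 6 B cell markers to 36.3 to 42.9 CPM, against 74.5 to 78.1, and the 7 dendritic cell markers to 37.3 to 41.6 CPM, against 101 to 105. All 4 erythroid markers fell, as did 2 of the 3 B cell markers tested (66.7%). Of the 6 dendritic cell markers tested, 5 fell (83.3%). Of the listed markers of other cells in the table, Ebf1 was at 0 reads, in Irf2 KO replicate 1. The part of these markers in the rise of replication genes was not tested.

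In Nr4a1 KO, 12 genes fell against wild type, where 15.1% of all genes were called and 11.2% were called lower. They were Cdt1, Mcm2, Mcm5, Gins3, Pola2, Pold1, Dscc1, Rnaseh2c, Rrm2, Dnmt1, Slbp and Timeless. The median log2 fold change was -0.27, beside 0.01 over all genes, and 11 of the 57 genes lay above 0, where 50.7% of all genes did. None was called higher by limma or by limma voom, and 1 was higher at an unadjusted p under 0.05, which 30.2% of all genes passed in either direction. Both Nr4a1 KO libraries lay below both wild type ones for 38 genes, where 28.9% of all genes did so. Gins3, Pold1, Dscc1, Rnaseh2c, Dnmt1 and Timeless were called whichever library was left out, and the count stayed between 10 and 12. The part of other cells in these falls was not tested. The early myeloid markers summed to 1913 to 1990 CPM in Nr4a1 KO, against 1701 to 1955 CPM in wild type. Of these, Ms4a3 and Ctsg were called higher, where 3.94% of all genes were. The classical monocyte markers summed to 36568 to 39745 CPM there, against 33941 to 38919 CPM in wild type, and Ccr2 and Cd14 rose. The neutrophil markers summed to 991 to 1222 CPM in Nr4a1 KO, against 912 to 923 CPM in wild type, the erythroid markers to 9.23 to 13.9 CPM, against 24.4 to 25.4 CPM (Hba-a1 fell), and the B cell markers to 42.7 to 46.7 CPM, against 74.5 to 78.1 CPM (Cd79a fell).

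The scale between libraries matters for these counts, because it moves all genes together. Centring each library on its median moved the median fold change of all genes by 0.07 for the libraries labelled Bcl6 cKO, 0.10 for Irf2 KO and 0.13 for Nr4a1 KO. After that, calls in the higher direction made up 40.7% (27.1% as deposited), 59.3% (42.9%) and 50.7% (26.1%) over all genes in the same order of genotypes. Among the replication genes, centring gave 0 higher and 4 lower calls, 17 higher and 1 lower, and 1 higher and 11 lower. Relative to the median of all genes, the median of the 57 genes lay at -0.22 for the libraries labelled Bcl6 cKO, 0.25 for Irf2 KO and -0.28 for Nr4a1 KO, and centring by itself cannot change these differences.

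The 3 comparisons with wild type share its 2 libraries, so the knockouts were also compared with each other directly. The comparisons of Irf2 KO with Nr4a1 KO and with the libraries labelled Bcl6 cKO in turn share the 2 Irf2 KO libraries. All 57 genes were higher in Irf2 KO than in Nr4a1 KO by their mean, where 50.3% of all genes were. Of these, 33 were called higher, where 22.3% of all genes were called and 12.4% were called higher. Both Irf2 KO libraries lay above both Nr4a1 KO libraries for 54 of the 57, where 32.1% of all genes did so. The median log2 fold change was 0.46, beside 0.00 over all genes, and the values ran from 0.06 for Rfc2 to 1.86 for Dscc1. The 57 positive values became 56 with quantile normalization, which left 21 calls, and 56 without Nr4a1 KO replicate 1. The median was 0.44 and 0.50 without Irf2 KO replicate 1 and 2, and 0.45 without Nr4a1 KO replicate 1. Fewer genes were called in these 3 fits, over all genes as well as among the 57.

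All 57 genes were also lower in the libraries labelled Bcl6 cKO than in Irf2 KO, with a median log2 fold change of -0.40, where 50% of all genes lay above 0. Of these, 17 were called lower, where 9.55% of all genes were called and 3.87% were called lower. Both libraries labelled Bcl6 cKO lay below both Irf2 KO ones for 54 genes, where 30.9% of all genes did so. With a library labelled Bcl6 cKO, of Irf2 KO or of wild type left out, fewer genes were called, over all genes as well. The counts that follow thus do not single out the 57 genes. Their median was -0.44 and -0.33 without replicate 1 and 2 of those labelled Bcl6 cKO. It was -0.38 and -0.41 without replicate 1 and 2 of Irf2 KO. Without replicate 2 of those labelled Bcl6 cKO 1 gene lay above 0, and without Irf2 KO replicate 1 there were 2. With 1 library labelled Bcl6 cKO left out, whichever it was, there was 1 call, with 1 Irf2 KO library left out 2 calls were made, and 11 were left without wild type replicate 1. The libraries labelled Bcl6 cKO and those of Nr4a1 KO were close, with 3 genes called higher (Gins3, Dscc1 and Rnaseh2c), where 5.75% of all genes were called and 4.97% were called higher. Of the 57, 38 lay above 0 in that comparison, where 49.4% of all genes did, but 26 after centring, so no direction is given for the set. None of the 3 calls was made without Bcl6 cKO replicate 2, and 1 was made without Nr4a1 KO replicate 2.

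**Figure D2:**
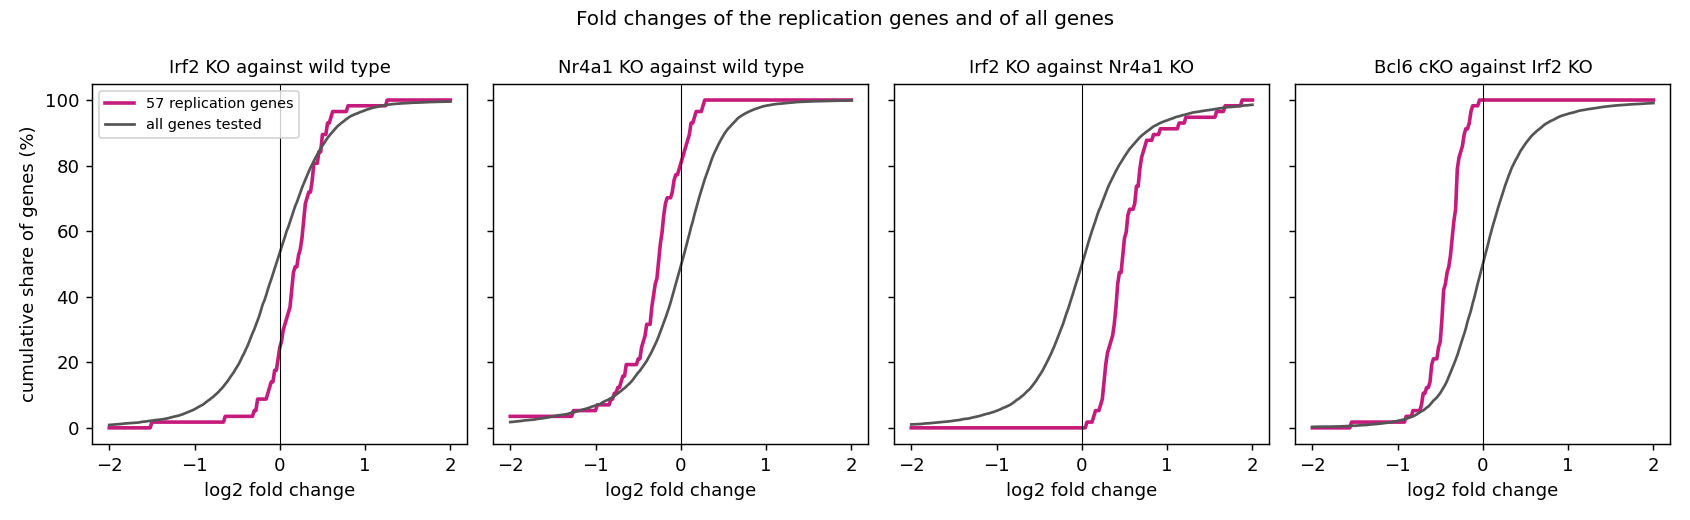
Cumulative share of genes (%) against log2 fold change for the 57 replication genes and for all 12752 genes tested, in 4 comparisons. In Irf2 KO against Nr4a1 KO the curve of the replication genes starts above 0, and in Bcl6 cKO against Irf2 KO it ends below 0, while the curve of all genes passes 50% near 0.

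Promoters were read for the 45 of the 57 genes that matched a RefSeq promoter on GRCm38.p6, from 250 bases before the gene start to 50 bases after it. An E2F word, one of TTTCCCGC, TTTGGCGC, TTTCGCGC or TTTGCCGC on either strand and with overlapping matches allowed, was found in 18 of the 45 (40.0%). It was found in 704 of all 27025 genes with a promoter (2.61%) and in 433 of the 8677 tested genes with one (4.99%). The matches are a description of these letters and not of binding. The median log2 fold change of Irf2 KO against Nr4a1 KO was 0.48 for the 18 genes with the word and 0.48 for the 27 without. Against wild type it was -0.25 for both sets in the libraries labelled Bcl6 cKO, 0.13 with the word and 0.21 without in Irf2 KO, and -0.31 with and -0.27 without in Nr4a1 KO. In Irf2 KO 1 of the 18 and 7 of the 27 were called higher, and in Nr4a1 KO 5 of the 18 and 6 of the 27 were called lower, differences that were not tested. An IRF word (GAAA, any 2 bases and GAAA) was found for Pold2 alone, against 3.99% of all genes. The NR4A word AAAGGTCA and the BCL6 word TTCCTAGAA were found in 0 of the 45, against 1.70% and 0.474% of all genes. A CCAAT box was found in 27 of the 45 (60.0%), against 41.1% of all genes. The 250 bases before the start are shown for 2 genes that hold an E2F word there and that fell in Nr4a1 KO (Mcm5 and Gins3), and for the genes with the largest rise and fall (Ccne1 and Rnaseh2c), in which none of the 4 words was found. The intervals are chr8:75109259-75109508 on the plus strand for Mcm5, chr8:95633309-95633558 on the plus strand for Gins3, chr7:38107491-38107740 on the minus strand for Ccne1 and chr19:5601623-5601872 on the plus strand for Rnaseh2c. The starts are those of RefSeq and can differ from the gene ends of GENCODE given further on. Letters run 5′ to 3′ toward the gene, capitals mark the E2F words, and the run of capitals for Mcm5 is a pair of overlapping words, one on each strand, that start 153 and 149 bases before the gene.
Mcm5: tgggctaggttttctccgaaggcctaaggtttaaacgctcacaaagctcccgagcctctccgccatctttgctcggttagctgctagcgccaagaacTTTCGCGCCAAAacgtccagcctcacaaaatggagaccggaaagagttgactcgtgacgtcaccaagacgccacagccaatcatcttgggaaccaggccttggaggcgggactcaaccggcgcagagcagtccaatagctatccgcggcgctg
Gins3: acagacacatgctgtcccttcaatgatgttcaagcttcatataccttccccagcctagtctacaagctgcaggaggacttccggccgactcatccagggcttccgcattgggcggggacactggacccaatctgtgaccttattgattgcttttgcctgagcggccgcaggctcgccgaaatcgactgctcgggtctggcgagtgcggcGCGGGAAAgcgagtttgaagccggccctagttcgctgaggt
Ccne1: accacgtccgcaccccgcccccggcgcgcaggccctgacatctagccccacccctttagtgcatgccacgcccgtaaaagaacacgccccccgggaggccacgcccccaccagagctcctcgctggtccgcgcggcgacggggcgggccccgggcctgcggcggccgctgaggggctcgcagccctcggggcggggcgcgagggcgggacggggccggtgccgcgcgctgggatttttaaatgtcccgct
Rnaseh2c: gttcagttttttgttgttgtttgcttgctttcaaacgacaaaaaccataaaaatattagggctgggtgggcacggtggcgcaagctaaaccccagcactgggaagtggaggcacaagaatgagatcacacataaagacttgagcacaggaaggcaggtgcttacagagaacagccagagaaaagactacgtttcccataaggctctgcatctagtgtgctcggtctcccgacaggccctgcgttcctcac

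**Figure D3:**
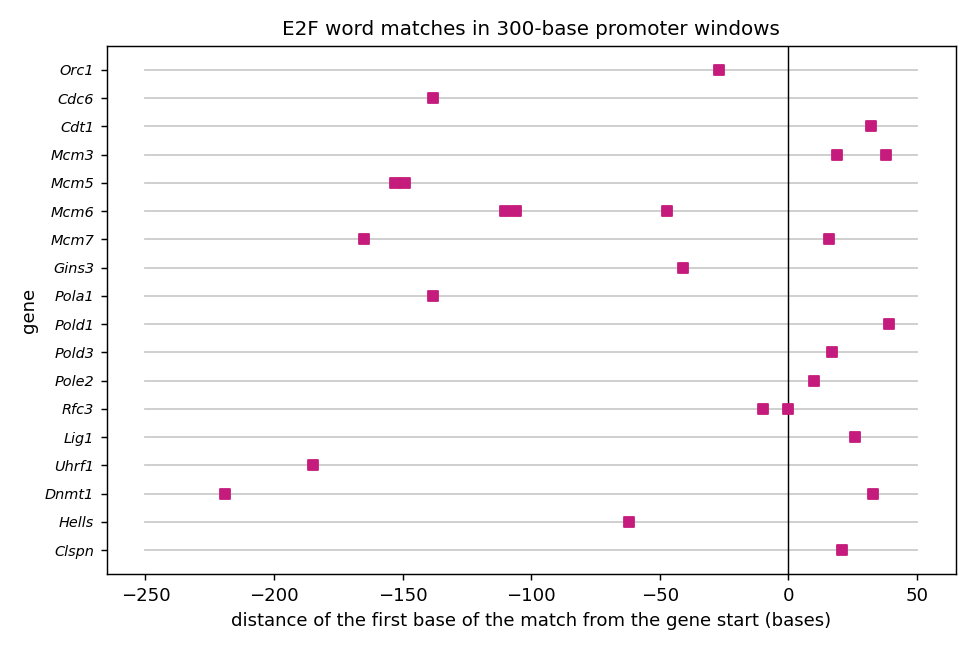
Position of each E2F word in the promoter windows of the 18 replication genes that hold one, as the distance in bases of its first base from the gene start, with grey lines from 250 bases before to 50 after. The matches are spread over the window, and Mcm5 and Mcm6 hold overlapping pairs.

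Origin licensing genes were lower in Nr4a1 KO and in the libraries labelled Bcl6 cKO for Mcm2 and Mcm5 and higher in Irf2 KO for Orc6. Mcm2 to Mcm7 encode the subunits of the helicase ring. Mcm2 stood at 6.60 and 6.42 log2 CPM in the libraries labelled Bcl6 cKO, 7.16 and 7.13 in Irf2 KO, 6.33 and 6.46 in Nr4a1 KO, and 6.92 and 7.15 in wild type. Those labelled Bcl6 cKO and those of Nr4a1 KO lay below both wild type libraries, while Irf2 KO overlapped with wild type. Mcm2 fell by 0.53 ± 0.12 on the log2 scale under the label Bcl6 cKO (adjusted p = 0.0376) and fell by 0.64 ± 0.12 in Nr4a1 KO (adjusted p = 0.00685). Mcm5, which had the highest level per length of the ring subunits, stood at 8.09 and 8.05 log2 CPM in the libraries labelled Bcl6 cKO, 8.35 and 8.38 in Irf2 KO, 8.12 and 8.07 in Nr4a1 KO, and 8.49 and 8.53 in wild type. All 6 knockout libraries lay below wild type, and Mcm5 fell by 0.44 ± 0.08 under the label Bcl6 cKO (adjusted p = 0.0201) and by 0.42 ± 0.08 in Nr4a1 KO (adjusted p = 0.00992). In Irf2 KO it gave -0.15 ± 0.08 (adjusted p = 0.226). Its mean level per kilobase of exon was 67.4, 82.5, 68.6 and 91.4 CPM per kb under the label Bcl6 cKO, in Irf2 KO, in Nr4a1 KO and in wild type.

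Cdt1, the loader of the helicase that is destroyed once S phase begins, stood at 5.13 and 5.49 log2 CPM in the libraries labelled Bcl6 cKO, 5.78 and 5.53 in Irf2 KO, 4.64 and 4.84 in Nr4a1 KO, and 5.41 and 5.65 in wild type. The Nr4a1 KO libraries were the lowest of the 8, and Cdt1 fell by 0.79 ± 0.17 there against wild type (adjusted p = 0.0143), a call that ended with the correction for GC content and length (adjusted p = 0.214). Orc6, a subunit of the origin recognition complex, stood at 6.58 and 6.34 log2 CPM in the libraries labelled Bcl6 cKO, 6.87 and 6.99 in Irf2 KO, 6.42 and 6.43 in Nr4a1 KO, and 6.46 and 6.32 in wild type. It rose by 0.54 ± 0.11 in Irf2 KO (adjusted p = 0.0135), where both libraries were above the other 6. Orc1, another subunit of that complex, gave 0.79 ± 0.26 in Irf2 KO, which did not pass the test (adjusted p = 0.0627). The authors' deposited test gave Orc1 an adjusted p of 0.0487 there. Its libraries held 3.05 and 3.05 log2 CPM in Irf2 KO, against 2.57 and 1.96 in wild type. Between the knockouts, Cdc6, Mcm3 and Mcm4 were also higher in Irf2 KO than in Nr4a1 KO, by 0.53 ± 0.12, 0.33 ± 0.10 and 0.48 ± 0.11 (adjusted p = 0.0164, 0.0390 and 0.0169). Mcm6 and Mcm7 did not pass that test, at 0.42 ± 0.23 and 0.26 ± 0.10. The 2 wild type libraries lay far apart for Mcm6, at 7.22 and 6.37 log2 CPM.

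Of the helicase activators, Gins3 fell in Nr4a1 KO and Gins1 rose in Irf2 KO against wild type. Both encode subunits of the 4-part GINS complex. Gins3 (chromosome 8, 95633453 to 95645060 on GRCm38, plus strand) stood at 3.94 and 3.78 log2 CPM in the libraries labelled Bcl6 cKO, 4.40 and 4.27 in Irf2 KO, 3.18 and 3.09 in Nr4a1 KO, and 4.38 and 4.42 in wild type. Both Nr4a1 KO libraries were below all others, those labelled Bcl6 cKO came next, and Irf2 KO overlapped with wild type. Gins3 fell by 1.27 ± 0.15 in Nr4a1 KO against wild type (adjusted p = 0.000654) and was 1.20 ± 0.15 higher in Irf2 KO than in Nr4a1 KO (adjusted p = 0.000857). It was 0.72 ± 0.15 higher in the libraries labelled Bcl6 cKO than in Nr4a1 KO (adjusted p = 0.0235), and its difference from wild type there, -0.54 ± 0.15, did not pass (adjusted p = 0.0759). Gins1 stood at 5.55 and 5.44 log2 CPM in the libraries labelled Bcl6 cKO, 5.89 and 6.09 in Irf2 KO, 5.55 and 5.58 in Nr4a1 KO, and 5.54 and 5.45 in wild type. It rose by 0.49 ± 0.12 in Irf2 KO (adjusted p = 0.0198), with both libraries above the other 6. Like Gins3, Gins1 was called higher in Irf2 KO than in Nr4a1 KO, by 0.43 (adjusted p = 0.0311).

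Gins4, the remaining GINS subunit, was not among the 57 and came from a list of other S phase genes. It stood at 4.86 and 5.12 log2 CPM in the libraries labelled Bcl6 cKO, 5.71 and 5.84 in Irf2 KO, 3.55 and 3.93 in Nr4a1 KO, and 5.78 and 5.61 in wild type. Like Gins3 it was lowest in Nr4a1 KO, where it fell by 1.96 ± 0.17 (adjusted p = 0.000112). Gins2 and Cdc45, which complete the active helicase, were each higher in Irf2 KO than in Nr4a1 KO, by 0.62 ± 0.12 (adjusted p = 0.00755) and 0.48 ± 0.10 (adjusted p = 0.0107). They were also lower in the libraries labelled Bcl6 cKO than in Irf2 KO, with log2 fold changes of -0.62 ± 0.12 (adjusted p = 0.0187) and -0.47 ± 0.10 (adjusted p = 0.0256). More of the exonic length of Gins2 than not, 67.3%, overlaps Gse1 on the opposite strand, and the 2 genes cannot be told apart without strand. Gse1 stood between 0.20 and 2.55 log2 CPM over the 8 libraries, against 5.64 to 6.41 for Gins2. Mcm10, which helps to switch the helicase on, passed no comparison, and its largest difference was 0.31 ± 0.15 between Irf2 KO and Nr4a1 KO.

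Among the polymerase genes, Pold1 and Pola2 fell in Nr4a1 KO. In the fit used here, none of the 9 was called in the other comparisons with wild type. Pold1, the catalytic subunit of polymerase delta, stood at 5.84 and 6.02 log2 CPM in the libraries labelled Bcl6 cKO, 6.52 and 6.27 in Irf2 KO, 5.60 and 5.76 in Nr4a1 KO, and 6.40 and 6.93 in wild type. Nr4a1 KO was the lowest, and both its libraries and those labelled Bcl6 cKO lay below wild type. Pold1 fell by 0.99 ± 0.18 in Nr4a1 KO (adjusted p = 0.00707), a call that ended with the correction for GC content and length (adjusted p = 0.124), and Pold1 has the highest GC content of the 57 transcripts, 61.0%. In the libraries labelled Bcl6 cKO its difference of -0.73 ± 0.18 did not pass (adjusted p = 0.0538), while the authors' deposited test gave an adjusted p of 0.0387. Pola2, the accessory subunit of polymerase alpha with primase, stood at 4.78 and 4.80 log2 CPM in the libraries labelled Bcl6 cKO, 5.18 and 4.94 in Irf2 KO, 4.23 and 4.50 in Nr4a1 KO, and 4.96 and 5.19 in wild type. It fell by 0.71 ± 0.16 in Nr4a1 KO (adjusted p = 0.0162), whose libraries were the lowest 2 of the 8.

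Prim1, the primase that starts each strand, and Pole, the catalytic subunit of polymerase epsilon, were higher in Irf2 KO than in Nr4a1 KO, by 0.48 ± 0.13 (adjusted p = 0.0284) and 0.55 ± 0.14 (adjusted p = 0.0226). Prim1 had the second highest level per length of the polymerase genes in Irf2 KO after Pold2, the polymerase delta subunit that was highest in wild type at 38.2 CPM per kb. Pold2 passed the F test (adjusted p = 0.0429) but no pairwise comparison of the fit used here. The authors' deposited test gave an adjusted p of 0.0437 for its fall in Bcl6 cKO against wild type. Pold2 stood at 5.52 and 5.76 log2 CPM in the libraries labelled Bcl6 cKO, 6.04 and 6.17 in Irf2 KO, 5.91 and 5.56 in Nr4a1 KO, and 6.15 and 6.20 in wild type. The accessory subunit gene Pole2 differed more between the 2 Nr4a1 KO libraries, at 4.37 and 3.57 log2 CPM, than between genotypes. Pola1, Prim2, Pold3 and Pole2 passed no comparison. Pole4, a small subunit of polymerase epsilon from the list of other S phase genes, fell by 2.37 ± 0.24 in Nr4a1 KO (adjusted p = 0.000306) and by 1.36 ± 0.24 under the label Bcl6 cKO (adjusted p = 0.0171).

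Of the 12 genes that rose in Irf2 KO, 5 belong to the clamp, its loaders and the single-strand binding proteins. This group has 10 genes, and of the others Dscc1 fell there, and the median log2 fold change was 0.32. Pcna, the sliding clamp, stood at 7.95 and 8.00 log2 CPM in the libraries labelled Bcl6 cKO, 8.33 and 8.31 in Irf2 KO, 7.93 and 7.94 in Nr4a1 KO, and 8.10 and 7.94 in wild type. The Irf2 KO libraries were the highest of the 8, and the rise against wild type was 0.30 ± 0.09 (adjusted p = 0.0446), one that ended under 5 of 10 other settings. Rfc4, a subunit of the clamp loader, stood at 6.42 and 5.90 log2 CPM in the libraries labelled Bcl6 cKO, 6.77 and 7.01 in Irf2 KO, 6.13 and 6.40 in Nr4a1 KO, and 6.24 and 6.32 in wild type. It rose by 0.61 ± 0.18 in Irf2 KO (adjusted p = 0.0422), and the loader subunits Rfc1 and Rfc3 rose there by 0.38 ± 0.11 and 0.36 ± 0.11 (adjusted p = 0.0397 and 0.0461). Of the exonic length of Rfc4, 12.7% overlaps Eif4a2 on the opposite strand, and the log2 fold change of Eif4a2 in Irf2 KO was 0.03 ± 0.12. The other loader genes, Rfc2 and Rfc5, did not pass any comparison and gave -0.12 ± 0.08 and -0.32 ± 0.20 in Irf2 KO.

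Rpa3, the smallest subunit of the RPA trimer that coats single-stranded DNA, stood at 6.20 and 6.06 log2 CPM in the libraries labelled Bcl6 cKO, 6.48 and 6.41 in Irf2 KO, 5.96 and 6.15 in Nr4a1 KO, and 5.92 and 5.87 in wild type. All 6 knockout libraries lay above wild type, and the rise of 0.55 ± 0.11 in Irf2 KO passed (adjusted p = 0.0115). Rpa3 has the lowest GC content of the 57 transcripts, 34.2%, and its call ended with the correction for GC content and length (adjusted p = 0.403). Rpa1 gave -0.02 ± 0.12 in Irf2 KO, and Rpa2 gave 0.34 ± 0.12 (adjusted p = 0.0701) but was lower in the libraries labelled Bcl6 cKO than in Irf2 KO, with a log2 fold change of -0.59 ± 0.12 (adjusted p = 0.0192).

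Dscc1 (chromosome 15, 55076099 to 55090491, minus strand) encodes a subunit of the alternative clamp loader that acts in sister chromatid cohesion. It stood at 2.64 and 2.98 log2 CPM in the libraries labelled Bcl6 cKO, 3.73 and 3.69 in Irf2 KO, 1.92 and 1.78 in Nr4a1 KO, and 4.36 and 4.37 in wild type. The 4 genotypes did not overlap, with wild type highest, then Irf2 KO, then the libraries labelled Bcl6 cKO, then Nr4a1 KO. Against wild type Dscc1 fell by 1.56 ± 0.18 under the label Bcl6 cKO (adjusted p = 0.00485), by 0.65 ± 0.18 in Irf2 KO (adjusted p = 0.0369) and by 2.52 ± 0.18 in Nr4a1 KO (adjusted p = 5.58e-05). The fall in Irf2 KO was not called after centring, after quantile normalization or without any 1 of the 2 Irf2 KO and 2 wild type libraries, where the adjusted p reached 0.149, and that in the libraries labelled Bcl6 cKO was not called without its replicate 1 (adjusted p = 0.0662). Neighbouring genotypes in this order also differed, by -0.90 ± 0.18 for the libraries labelled Bcl6 cKO against Irf2 KO (adjusted p = 0.0219) and 0.96 ± 0.18 for them against Nr4a1 KO (adjusted p = 0.0174). Chtf18, the large subunit of the same loader and a gene of the list of other S phase genes, fell by 0.95 ± 0.22 under the label Bcl6 cKO (adjusted p = 0.0438) and by 1.55 ± 0.22 in Nr4a1 KO (adjusted p = 0.00184). Its difference in Irf2 KO, -0.47 ± 0.22, did not pass (adjusted p = 0.155).

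**Figure D4:**
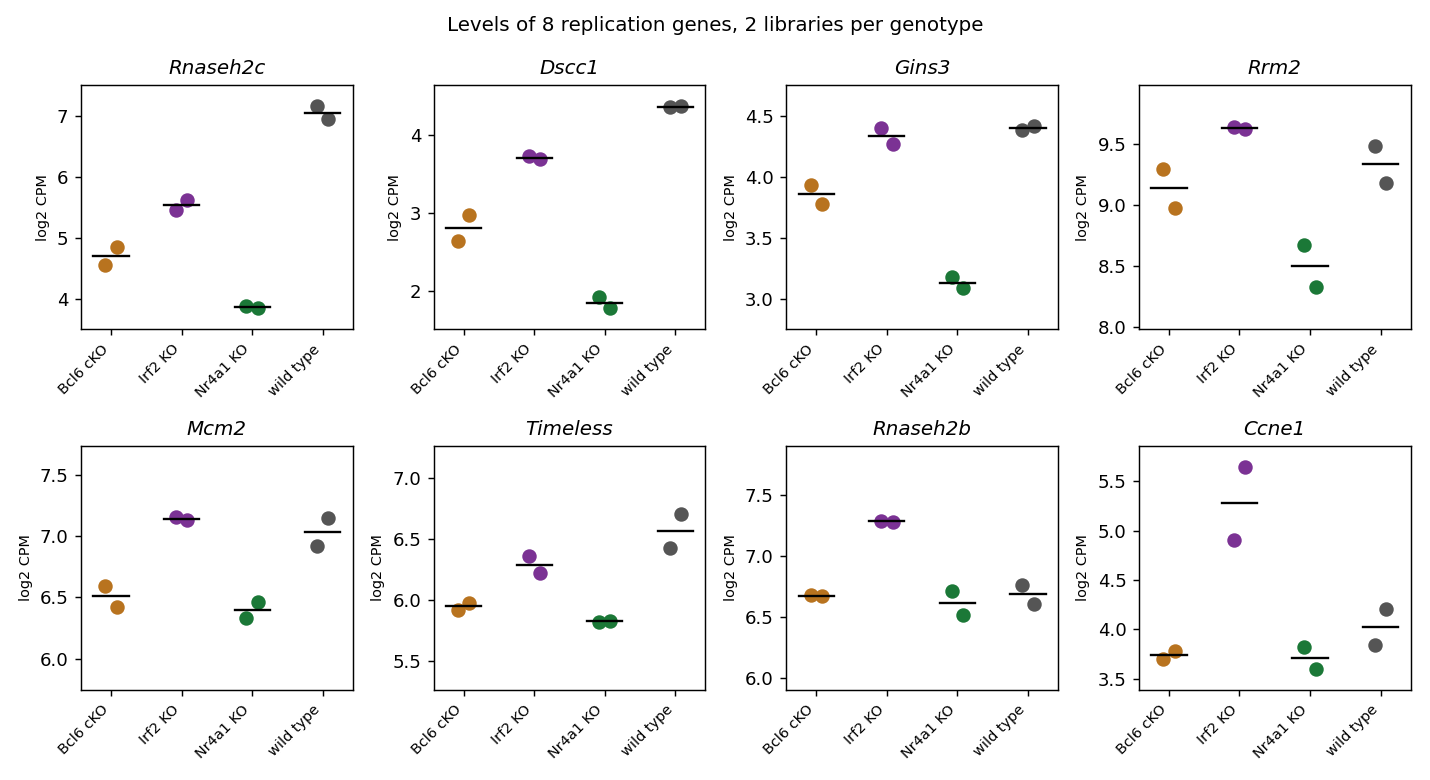
Level in log2 CPM of 8 replication genes in each library, with points for the 2 libraries of a genotype and a bar at their mean, and a vertical axis of its own for each gene that does not start at 0. Rnaseh2c and Dscc1 are highest in wild type and lowest in Nr4a1 KO, while Rnaseh2b and Ccne1 stand above the other genotypes in Irf2 KO.

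The 3 subunits of RNase H2, the enzyme that removes ribonucleotides from DNA, differed in their values. Rnaseh2c (chromosome 19, 5601873 to 5607019, plus strand) encodes a structural subunit and stood at 4.56 and 4.86 log2 CPM in the libraries labelled Bcl6 cKO, 5.46 and 5.62 in Irf2 KO, 3.88 and 3.86 in Nr4a1 KO, and 7.16 and 6.94 in wild type. Its order of genotypes was that of Dscc1, with no overlap between any 2. Against wild type it fell by 2.34 ± 0.14 under the label Bcl6 cKO (adjusted p = 0.00111), by 1.51 ± 0.14 in Irf2 KO (adjusted p = 0.00114) and by 3.18 ± 0.14 in Nr4a1 KO (adjusted p = 1.61e-05). These are levels 5.06, 2.85 and 9.06 times lower, and by log2 fold change they ranked 25, 277 and 54 from the lowest of the 12752 genes. Each of these calls was made whichever library was left out and under each of 10 other settings.

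Rnaseh2c overlaps Kat5 on the opposite strand over 24.8% of its exonic length, and reads of the pair cannot be told apart without strand. Kat5, which encodes a histone acetyltransferase, stood at 5.10 and 5.17 log2 CPM in the libraries labelled Bcl6 cKO, 4.91 and 5.11 in Irf2 KO, 5.55 and 5.54 in Nr4a1 KO, and 5.56 and 5.54 in wild type. Its log2 fold change in Nr4a1 KO, where Rnaseh2c was lowest, was -0.01 ± 0.12 (adjusted p = 0.965), and it fell by 0.54 ± 0.12 in Irf2 KO (adjusted p = 0.0144).

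Rnaseh2b, the other structural subunit, stood at 6.68 and 6.67 log2 CPM in the libraries labelled Bcl6 cKO, 7.29 and 7.28 in Irf2 KO, 6.72 and 6.52 in Nr4a1 KO, and 6.76 and 6.61 in wild type. It rose by 0.60 ± 0.11 in Irf2 KO (adjusted p = 0.00707) and was called there whichever library was left out. Rnaseh2a, the catalytic subunit, stood between 6.10 and 6.50 log2 CPM in all 8 libraries and passed no comparison with wild type, with values of -0.16 ± 0.09, 0.21 ± 0.09 and -0.04 ± 0.09 for Bcl6 cKO, for Irf2 KO and for Nr4a1 KO. In wild type the mean level per length was 22.2 CPM per kb for Rnaseh2a, 16.5 for Rnaseh2b and 77.4 for Rnaseh2c. In Nr4a1 KO it was 21.6, 15.8 and 8.52 CPM per kb for the same genes.

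Of the genes that join Okazaki fragments, Lig1 (DNA ligase) stood at 7.10 and 6.97 log2 CPM in the libraries labelled Bcl6 cKO, 7.69 and 7.46 in Irf2 KO, 7.21 and 7.11 in Nr4a1 KO, and 7.46 and 7.42 in wild type. It was 0.42 ± 0.11 higher in Irf2 KO than in Nr4a1 KO (adjusted p = 0.0257) and -0.54 ± 0.11 in the libraries labelled Bcl6 cKO against Irf2 KO (adjusted p = 0.0205), but passed no comparison with wild type. The flap nuclease gene Fen1 and the exonuclease gene Exo1 passed no comparison, and Fen1 stood at 3.74 and 3.07 log2 CPM in the 2 libraries labelled Bcl6 cKO.

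The genes of deoxynucleotide supply make the building blocks of DNA. Rrm2, the regulated subunit of ribonucleotide reductase, had the highest level per length of the 57 genes in every genotype, with 204, 286, 132 and 234 CPM per kb under the label Bcl6 cKO, in Irf2 KO, in Nr4a1 KO and in wild type. Its libraries stood at 9.30 and 8.97 log2 CPM under the label Bcl6 cKO, 9.64 and 9.62 in Irf2 KO, 8.67 and 8.33 in Nr4a1 KO, and 9.48 and 9.18 in wild type. Both Nr4a1 KO libraries were below the other 6 and both Irf2 KO libraries above them. Rrm2 fell by 0.83 ± 0.16 in Nr4a1 KO (adjusted p = 0.00788) and was 1.13 ± 0.16 higher in Irf2 KO than in Nr4a1 KO (adjusted p = 0.00151). The fall was not called without wild type replicate 1 (adjusted p = 0.0535). Tyms, which makes thymidylate, stood at 8.14 and 7.96 log2 CPM in the libraries labelled Bcl6 cKO, 8.32 and 8.39 in Irf2 KO, 7.68 and 7.70 in Nr4a1 KO, and 7.96 and 7.84 in wild type, and rose by 0.45 ± 0.10 in Irf2 KO (adjusted p = 0.0142).

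Rrm1, the large subunit of the reductase, and Tk1, the thymidine kinase of S phase, were higher in Irf2 KO than in Nr4a1 KO by 0.48 ± 0.13 (adjusted p = 0.0294) and 0.42 ± 0.11 (adjusted p = 0.0252). Dut, whose enzyme keeps uracil out of DNA, passed no comparison. It stood at 3.74 and 3.99 log2 CPM in the libraries labelled Bcl6 cKO, 4.53 and 4.52 in Irf2 KO, 3.70 and 3.69 in Nr4a1 KO, and 5.04 and 3.71 in wild type. Its wild type libraries were 1.33 apart, the widest gap between replicates among the 57 genes.

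Among the genes that restore chromatin and DNA methylation behind the fork, Dnmt1 and Slbp fell in Nr4a1 KO and none was called in the other comparisons with wild type. Dnmt1, the maintenance DNA methyltransferase, stood at 7.41 and 7.34 log2 CPM in the libraries labelled Bcl6 cKO, 7.78 and 7.60 in Irf2 KO, 7.03 and 7.03 in Nr4a1 KO, and 7.66 and 7.70 in wild type. It fell by 0.65 ± 0.10 in Nr4a1 KO (adjusted p = 0.00225), where both libraries were the lowest of the 8. Uhrf1, which brings Dnmt1 to newly copied DNA, was 0.62 ± 0.11 higher in Irf2 KO than in Nr4a1 KO (adjusted p = 0.00499), and gave -0.36 ± 0.11 in Nr4a1 KO against wild type (adjusted p = 0.0583). Its mean level per length, 47.6 CPM per kb in wild type, was the highest of this group. Slbp, the protein that binds the stem loop of histone mRNAs, stood at 7.90 and 7.72 log2 CPM in the libraries labelled Bcl6 cKO, 8.01 and 7.90 in Irf2 KO, 7.47 and 7.40 in Nr4a1 KO, and 7.94 and 7.88 in wild type. It fell by 0.48 ± 0.10 in Nr4a1 KO (adjusted p = 0.0127). Chaf1b, a histone chaperone subunit, was 0.53 ± 0.13 higher in Irf2 KO than in Nr4a1 KO (adjusted p = 0.0198). Its partner Chaf1a and the chromatin remodeller gene Hells passed no comparison, and Hells stood at 5.34 and 4.37 log2 CPM in wild type. Chaf1a overlaps Ubxn6 on the opposite strand over 52.5% of its exonic length, and the pair cannot be told apart without strand. Ubxn6 stood between -2.59 and 2.52 log2 CPM over the 8 libraries. Against wild type it gave -3.91 ± 0.55 in Nr4a1 KO (adjusted p = 0.00183) and -1.96 ± 0.55 in Irf2 KO (adjusted p = 0.0362). Under the label Bcl6 cKO it gave -2.05 ± 0.55 (adjusted p = 0.0733).

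Timeless and Tipin encode the partners of the complex that holds the fork together, and their calls against wild type lay in different genotypes. Compared directly, both were called higher in Irf2 KO than in Nr4a1 KO. The log2 fold changes were 0.46 for Timeless (adjusted p = 0.0261) and 0.35 for Tipin (adjusted p = 0.0418). Timeless stood at 5.92 and 5.97 log2 CPM in the libraries labelled Bcl6 cKO, 6.36 and 6.22 in Irf2 KO, 5.82 and 5.83 in Nr4a1 KO, and 6.43 and 6.70 in wild type. All 6 knockout libraries lay below wild type, and Timeless fell by 0.62 ± 0.12 under the label Bcl6 cKO (adjusted p = 0.0249) and by 0.74 ± 0.12 in Nr4a1 KO (adjusted p = 0.00390). In Irf2 KO it gave -0.28 ± 0.12 (adjusted p = 0.132). Tipin, with the highest level per length of this group, stood at 7.19 and 7.04 log2 CPM in the libraries labelled Bcl6 cKO, 7.70 and 7.55 in Irf2 KO, 7.26 and 7.30 in Nr4a1 KO, and 7.24 and 7.10 in wild type. It rose by 0.45 ± 0.10 in Irf2 KO (adjusted p = 0.0171), where both libraries were the highest of the 8. Usp1, which removes ubiquitin from the clamp, stood at 5.50 and 5.49 log2 CPM in the libraries labelled Bcl6 cKO, 5.91 and 5.71 in Irf2 KO, 5.63 and 5.55 in Nr4a1 KO, and 5.44 and 5.19 in wild type, and rose by 0.49 ± 0.13 in Irf2 KO (adjusted p = 0.0293). The checkpoint mediator gene Clspn passed no comparison.

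Ccne1 gave the largest rise of the set. It encodes cyclin E1, which with its kinase starts S phase, and lies on chromosome 7 at 38097984 to 38107534 on the minus strand. It stood at 3.69 and 3.78 log2 CPM in the libraries labelled Bcl6 cKO, 4.91 and 5.65 in Irf2 KO, 3.82 and 3.60 in Nr4a1 KO, and 3.84 and 4.20 in wild type. Both Irf2 KO libraries were above the other 6, and they were 0.74 apart, the widest gap between Irf2 KO replicates among the 57 genes. Ccne1 rose by 1.26 ± 0.24 in Irf2 KO against wild type (adjusted p = 0.00999) and was 1.57 ± 0.24 higher in Irf2 KO than in Nr4a1 KO (adjusted p = 0.00279). Against wild type the call was not made without Irf2 KO replicate 2 or without wild type replicate 1, where the adjusted p reached 0.0550. Ccne2, which encodes the paralog cyclin E2, gave 0.27 ± 0.20 in Irf2 KO (adjusted p = 0.355) and passed no comparison.

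**Figure D5:**
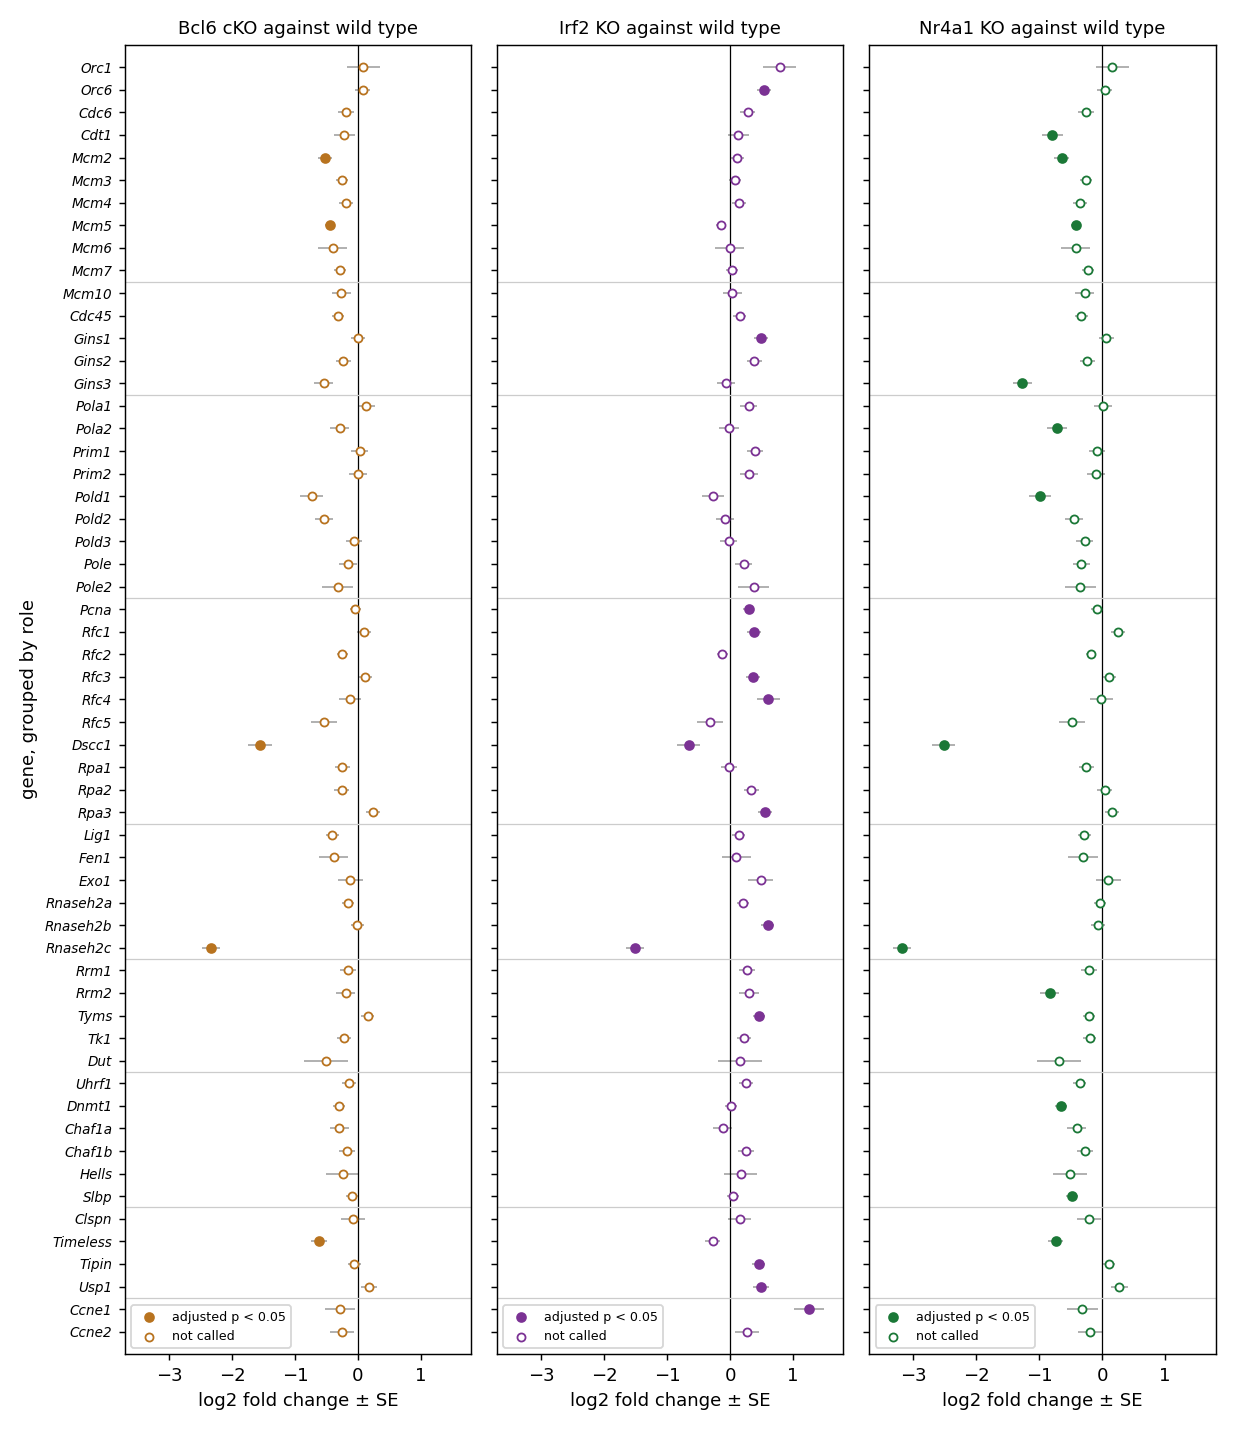
Log2 fold change with its SE for each of the 57 replication genes against wild type, 1 panel per knockout, with filled points for an adjusted p under 0.05. Filled points lie left of 0 in Bcl6 cKO (5) and Nr4a1 KO (12), and mostly right of 0 in Irf2 KO (12 of 14).

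Genes of S phase outside the set were read from a list of 63, of which 62 were tested. In the libraries labelled Bcl6 cKO 3 fell (Chtf18, Pole4 and Gins4), which is 4.84% of the list beside 3.65% of all genes, and the median log2 fold change of the list was -0.09. In Irf2 KO 5 rose (Gmnn, E2f3, Shmt1, Nasp and Dctpp1) and 2 fell (E2f2 and Dna2), with a median of 0.09. The 5 rises are 8.06% of the list, near the 9.26% of all genes called higher, and the 2 falls are 3.23%, below the 12.3% of all genes called lower. In Nr4a1 KO 9 fell (among them Dguok, Chtf18, E2f7, Cdk2, Pole4, Gins4, Recql4 and Top1), which is 14.5% beside 11.2% of all genes, with a median of -0.12. Between Irf2 KO and Nr4a1 KO, 18 were called higher (29.0%, beside 12.4% of all genes) and 2 lower, with a median of 0.34. Of the E2F genes themselves, E2f1 stood at 4.59 and 4.70 log2 CPM in Irf2 KO and 4.89 and 4.48 in Nr4a1 KO, against 4.82 and 4.88 in wild type, and passed no comparison. E2f3, an activator, rose by 0.66 ± 0.19 in Irf2 KO (adjusted p = 0.0413), and E2f7, a repressor, fell by 0.84 ± 0.20 in Nr4a1 KO (adjusted p = 0.0231). Cdk2, the kinase partner of cyclin E, fell by 0.94 ± 0.12 in Nr4a1 KO (adjusted p = 0.000937).

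The 22 genes of G2 and mitosis on the list were read for the same comparisons, without a test of their difference from the replication genes. In Irf2 KO 2 of them fell (Cdc20 and Ccnb2), which is 9.09% beside 12.3% of all genes. The median log2 fold change was -0.04, beside -0.04 over all genes. In Nr4a1 KO 10 fell (45.5%, beside 11.2% of all genes), with a median of -0.42. Cenpa, the centromeric histone, stood at 5.83 and 5.78 log2 CPM there, against 8.19 and 8.21 in wild type. In the libraries labelled Bcl6 cKO 4 fell (Cdc20, Cenpa, Ccnb2 and Bub1b), with a median of -0.14. That is 18.2%, beside 3.65% of all genes. Mki67, the common marker of cycling cells, stood at 8.56 and 8.54 log2 CPM in the libraries labelled Bcl6 cKO, 8.74 and 8.56 in Irf2 KO, 8.43 and 8.06 in Nr4a1 KO, and 8.60 and 8.39 in wild type. It passed no comparison. Between Irf2 KO and Nr4a1 KO, 21 of these 22 genes lay above 0 and 13 were called higher (59.1%, beside 12.4% of all genes), with a median of 0.41, beside 0.46 for the 57 replication genes.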

How the data were processed

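RNA of 8 libraries was sequenced in paired reads from cDNA made with a low-input kit, and the sources used here do not say whether counting used strand. Per the submitters' processing notes, bcl2fastq, STAR, Subread, featureCounts, Salmon and limma were used with build mm10, in an order not given there. The deposited table holds log2 CPM per library. The values equal the log2 of reads plus 0.5 over a scaled total plus 1, which was checked by undoing it: 100% came within 0.01 of whole reads. The table also holds the authors' log2 fold changes with their p-values, per the file headers, used here as an alternative test. Of 13789 entries, 45 repeated ones were left out.

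A linear model of the log2 CPM values was made in limma 3.58.1 under R 4.3.3 (8 libraries, a mean for each of 4 genotypes, empirical Bayes with trend, 4 residual and 4.66 prior degrees of freedom) over 12752 genes with a mean of at least 0 log2 CPM. P-values were adjusted by the Benjamini-Hochberg method within each comparison and called at 0.05. The value after ± is the moderated standard error. The members and lists were chosen with earlier results of these data known, and no test was made over a list. Named with values are the targeted genes, members called against wild type or by the F test, the highest member of each role and the largest changes, and further genes were named after their values were seen. Positions, lengths and GC content came from GENCODE M21 on GRCm38. CPM per kb divides by exonic length. The fit was also run on simulated data with known changes. Their spread was drawn from the fit's own variances, so that run cannot check the spread assumed for these libraries. Alternatives were other filters, no trend, centring, quantile normalization, a replicate block, a fit to the genotypes compared alone, each library left out in turn, limma voom on the recovered reads and the authors' test. A GC and length correction and medians without Rnaseh2c and Dscc1 were added after seeing the data. Figures used matplotlib 3.10.9.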

Additional observations from a re-analysis of the deposited data

How the results depend on the processing

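When the called values of single replication genes, those of the F test included, were recomputed under other settings, 1514 were still called and 457 were not, and none that has a direction reversed. Values that were not called did change sign, as the counts above 0 show. Without the trend, calls numbered 2 for Bcl6 cKO, 7 for Irf2 KO, 19 for Irf2 KO against Nr4a1 KO, 3 for Bcl6 cKO against Irf2 KO and 11 for the F test. Quantile normalization gave 21 calls for Irf2 KO against Nr4a1 KO and a median of -0.17 for Nr4a1 KO. Centring gave medians of 0.31 for Irf2 KO and -0.14 for Nr4a1 KO. With the GC and length correction, calls numbered 2 for Bcl6 cKO and 6 for Bcl6 cKO against Nr4a1 KO, and the median for Nr4a1 KO was -0.26. That median was also -0.26 without Rnaseh2c and Dscc1. Fold changes against wild type fell with GC content across 12740 genes (Spearman's rho -0.32, -0.19 and -0.34 in the order Bcl6 cKO, Irf2 KO, Nr4a1 KO), and genes are not independent replicates. With only the groups compared, Bcl6 cKO against Nr4a1 KO gave 0 calls in limma, with 9 higher at an unadjusted p under 0.05, and limma voom over all groups gave 3. Leaving out 1 library at a time gave 1 to 7 calls for Bcl6 cKO, 3 to 17 for Irf2 KO, 15 to 35 for Irf2 KO against Nr4a1 KO, 1 to 21 for Bcl6 cKO against Irf2 KO, 0 to 4 for Bcl6 cKO against Nr4a1 KO and 14 to 31 for the F test, and medians of -0.31 to -0.085 for Bcl6 cKO, 0.14 to 0.28 for Irf2 KO and -0.31 to -0.21 for Nr4a1 KO. A genotype left with 1 library is assumed to vary like the others, and the counts over all genes changed in these fits as well. The cause of these changes was not tested. Replicate differences of same-numbered libraries correlated at -0.003 to 0.183 over the 6 pairs of genotypes. With 1 such difference per genotype, these values cannot decide whether the numbers pair the libraries, and the labels do not say. With the replicate number as a block, calls numbered 6 for Bcl6 cKO, 12 for Irf2 KO, 13 for Nr4a1 KO, 33 for Irf2 KO against Nr4a1 KO, 16 for Bcl6 cKO against Irf2 KO, 5 for Bcl6 cKO against Nr4a1 KO and 28 for the F test. The authors' deposited table called 7 of the 57 genes for Bcl6 cKO, 16 for Irf2 KO and 12 for Nr4a1 KO.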

Other observations

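Replication-dependent histone genes, whose mRNAs are made in S phase to package new DNA, were read as a list chosen after the data were seen. Of 24 in the table, 19 were tested. In Nr4a1 KO 6 of them (31.6%, beside 11.2% of all genes) fell against wild type (H2bc4, H2bc8, H4c9, H4c4, H2bc11 and H2bc14), with a median log2 fold change of -0.82, beside 0.01 over all genes. In Irf2 KO 2 rose (H4c9 and H4c14), a share of 10.5% near the 9.26% of all genes called higher, with a median of 0.43, beside -0.04 over all genes. In the libraries labelled Bcl6 cKO limma called 0 of the 19, with 0 at an unadjusted p under 0.05 and a median of 0.08, and limma voom also called 0. Against Nr4a1 KO, 18 of the 19 lay above 0 in Irf2 KO and 8 were called higher (42.1%, beside 12.4% of all genes), with a median of 1.36. These genes are near-identical copies whose reads counting could split, and most of their mRNAs carry no poly(A) tail, so single values are uncertain. The comparisons with wild type share its libraries.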
